A study of Mus musculus with 9 samples.

Results

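Integrins are cell surface receptors made of an alpha and a beta chain, and a chain that finds no partner is not delivered to the surface. The alpha chain largely sets the ligand in the matrix, such as laminin, collagen or fibronectin, and the beta chain's cytoplasmic tail binds talin and kindlin and so links the receptor to actin. The ovarian surface epithelium, a single layer of cells on the ovary, rests through such receptors on a basement membrane of laminin and type IV collagen. Here the mRNAs of 10 integrin chains, 6 alpha (Itga2, Itga3, Itga5, Itga6, Itga7, Itgav) and 4 beta (Itgb1, Itgb3, Itgb5, Itgb8), were followed through the spontaneous transformation of mouse ovarian surface epithelial (MOSE) cells, with the question of which alpha-beta pairs remained measurable at each stage. The chains are 10 of the 18194 genes that a probe set named alone, and all 29 of their probe sets, of 45101 on the array, were taken.

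The cells descend from C57BL6 mice and became transformed spontaneously while passaged as a heterogeneous culture, at all stages in the same serum-containing medium with insulin, transferrin and selenite. MOSE-E cells, labelled as non-malignant, were taken at passages 13, 14 and 15, MOSE-I cells, a neoplastic stage before invasion, at passages 63, 71 and 73, and MOSE-L cells, the malignant and invasive stage, at passages 136, 142 and 143. Each passage gave 1 Affymetrix whole-genome mouse array, 9 in all, with linear MAS 5.0 signals scaled to the same trimmed mean. Since every array comes from the same line of cultures at successive passages, p-values measure only the spread between these cultures, and stage cannot be told apart from time in culture.

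A probe set was tested where its signal was over 500 on at least 1 array, and changes are differences of log2(signal + 50) fitted in limma over 13845 probe sets, with p-values adjusted by Benjamini-Hochberg. The added 50 understates the change of dim genes. A chain was called higher or lower where the adjusted p was 0.05 or less and the log2 change was 1 or more in size, by its tested probe set with the highest mean signal. Of the 10 chains, 8 passed the filter, with 17 of the 29 probe sets, and Itga2 and Itgb3 did not. Median signals ran from 93.2 to 130.0 per array. Replicate 1 was the array least like the others of its stage in MOSE-E and in MOSE-I cells. Its correlations to them were 0.9514 to 0.9553 in MOSE-E and 0.9389 to 0.9473 in MOSE-I cells. Replicates 2 and 3 correlated with each other at 0.9857 in MOSE-E and 0.9852 in MOSE-I cells. Replicate 3 of MOSE-L stood somewhat apart, with correlations of 0.8886 to 0.9066 to the other arrays of its stage and the highest Actb 3'/5' signal ratio, a sign of RNA quality. This ratio was 1.12 to 1.25 on MOSE-E arrays, 1.31 to 1.38 on MOSE-I arrays and 1.34 to 1.83 on MOSE-L arrays. Every later array thus lay above every MOSE-E array. The Gapdh 3'/5' ratio did not follow this order. It was 0.744 to 0.773 on MOSE-E, 0.773 to 0.810 on MOSE-I and 0.727 to 0.739 on MOSE-L arrays, and lowest on MOSE-L replicate 3. The part of either ratio in the results was not tested. Of 11 markers of the ovarian surface epithelium 8 were over 500 on all arrays (Aldh1a2 was under it on all). Krt7 was 2793 to 3703 on MOSE-E arrays, 75.8 to 545 on MOSE-I arrays and 89.3 to 202 on MOSE-L arrays. Muc16 was 127 to 609, 16.7 to 94.4 and 133 to 266 in the same order. None of 8 leukocyte markers was over 500 on all arrays, though Csf1r reached 595 on MOSE-I replicate 3. The 6 endothelial and 4 granulosa markers were under 500 throughout. Fibroblast and stroma markers were over 500 on all arrays for 2 of 6 genes (Dcn and Col1a1). Signals of the 6 summed to 13224 to 34139.8 on MOSE-E arrays, 9031 to 28308 on MOSE-I arrays and 22551 to 32642 on MOSE-L arrays. Pdgfra was 128 to 185 on MOSE-E arrays, 175, 1040 and 1556 on MOSE-I arrays and 536, 261 and 1221 on MOSE-L arrays. Pdgfrb was over 500 on MOSE-I replicates 2 and 3 alone, at 674 and 1011, and was 404 on MOSE-I replicate 1.

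Between MOSE-L and MOSE-E cells 2 of the 8 tested chains were higher (Itgb5 and Itgb8), 1 was lower (Itga7) and 5 were not called. Over all 7952 tested genes 8.11% were called higher and 7.49% lower. Between MOSE-I and MOSE-E cells 1 chain was higher (Itgb8) and 3 were lower (Itga7, Itgav and Itgb1), against 2.29% higher and 3.61% lower among all genes. Between MOSE-L and MOSE-I cells 2 chains were higher (Itga6 and Itgb1) and none was lower, against 7.38% and 6.04% of all genes. The median log2 change of the 8 chains was 0.02 between MOSE-L and MOSE-E, -0.82 between MOSE-I and MOSE-E and 0.82 between MOSE-L and MOSE-I cells, beside medians of 0.03, 0.03 and -0.02 over all tested genes. These 3 comparisons share arrays, so a low MOSE-I value enters both of its comparisons. The calls of MOSE-I against MOSE-E hung on single arrays: without MOSE-E replicate 2, MOSE-E replicate 3 or MOSE-I replicate 3, 0 of the 8 chains were called in limma, though 4, 5 and 4 had an unadjusted p under 0.05 and passed the fold, and without MOSE-I replicate 2 Itgav and Itgb1 were called. Over all genes the share called in the first 3 of these fits was also low, at 1.01%, 1.1% and 1.69%, against 5.9% with all arrays. Without MOSE-L replicate 1, 5 chains were called for MOSE-L against MOSE-I, with 18.9% of all genes, against 13.4% with all arrays. In bulk RNA, fewer cells with an mRNA and less of it per cell cannot be told apart.

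**Figure D1:**
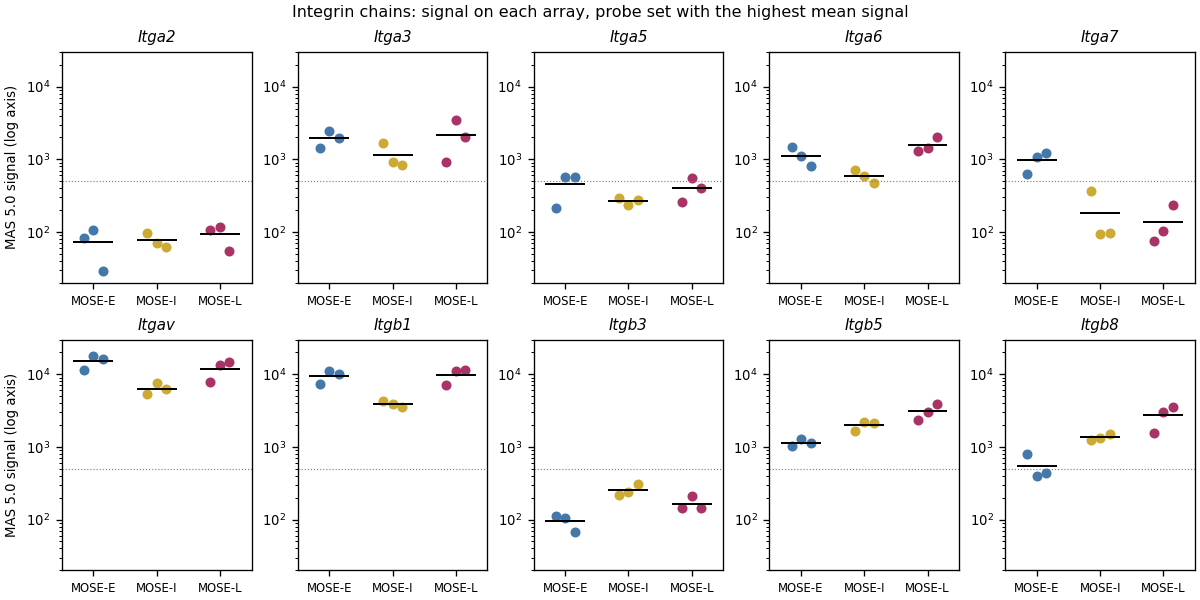
Each panel plots the signal of 1 integrin chain (vertical log axis, MAS 5.0 units without dimension) on the 3 arrays of each stage (MOSE-E, then MOSE-I, then MOSE-L), with the mean as a bar and a dotted line at 500. Itgav and Itgb1 have their lowest signals in MOSE-I cells, Itgb5 and Itgb8 are highest in MOSE-L cells, and Itga7 lies over 500 in MOSE-E cells alone.

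Itgb1 was lower in MOSE-I cells and Itgb5 and Itgb8 were both higher in MOSE-L cells, so the 250 bases before the start of these 3 genes are shown (RefSeq, mouse build GRCm38.p6). Of the 10 chains, 7 had an entry in the promoter table, and Itga6, Itga7 and Itgb3 did not. The window given for Itgav lies inside the annotated gene and is not shown. The Itgb1 window lies at chr8:128685404-128685653, plus strand, Itgb5 at chr16:33829415-33829664, plus strand and Itgb8 at chr12:119238277-119238526, minus strand, each ending at the base before the annotated gene. Capitals mark matches to 5 motifs or their reverse complements: the GC box GGGCGG, the CCAAT box CCAAT, the AP-1 site TGANTCA, the TEAD site GGAATG and the E-box CAGGTG bound by Snail and ZEB repressors.
Itgb1: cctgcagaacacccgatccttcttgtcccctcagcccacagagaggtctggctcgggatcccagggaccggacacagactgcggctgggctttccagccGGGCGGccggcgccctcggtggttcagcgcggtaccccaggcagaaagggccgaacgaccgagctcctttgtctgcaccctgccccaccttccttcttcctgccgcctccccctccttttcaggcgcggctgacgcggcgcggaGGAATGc
Itgb5: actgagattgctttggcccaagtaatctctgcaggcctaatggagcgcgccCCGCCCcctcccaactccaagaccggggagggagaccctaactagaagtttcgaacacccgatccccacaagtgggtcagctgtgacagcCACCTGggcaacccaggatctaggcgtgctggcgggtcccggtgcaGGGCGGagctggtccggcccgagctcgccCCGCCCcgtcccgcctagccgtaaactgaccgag
Itgb8: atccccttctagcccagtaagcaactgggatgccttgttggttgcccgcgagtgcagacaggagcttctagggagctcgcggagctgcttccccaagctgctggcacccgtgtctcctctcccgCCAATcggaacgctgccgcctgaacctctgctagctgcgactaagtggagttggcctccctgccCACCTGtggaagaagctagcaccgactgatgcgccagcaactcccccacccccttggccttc
The Itgb1 window held 1 GC box and 1 TEAD site, the Itgb5 window 3 GC boxes and 1 E-box, and the Itgb8 window 1 CCAAT box and 1 E-box. Among 32851 windows of the same length, 32.7% held a GC box, 33.8% a CCAAT box, 6.75% an AP-1 site, 12.6% a TEAD site and 17.2% the E-box. The GC content was 68% for Itgb1, 65.2% for Itgb5 and 62.4% for Itgb8, against a median of 52.4% over all windows. CG pairs numbered 21, 18 and 12 in the same order, against a median of 6. The Itgb5 and Itgb8 windows both held the E-box, and no matches overlapped. A window of Itga3, not shown, also held 1 E-box, and Itga3 was not called in any comparison by its brightest probe set. A match is a run of letters, and binding was not measured.

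Itgav encodes the alpha chain of the receptors for vitronectin, fibronectin and latent TGF-beta, and pairs with Itgb1, Itgb3, Itgb5, Itgb6 and Itgb8. Its brighter probe set, 1452784_at, gave signals of 11521, 17963 and 16067 on the MOSE-E arrays, 5333, 7514 and 6197 on the MOSE-I arrays and 7748, 13430.0 and 14572 on the MOSE-L arrays. All MOSE-I signals lay below all MOSE-E and all MOSE-L signals, while the MOSE-L and MOSE-E arrays overlapped. The mRNA was lower in MOSE-I than in MOSE-E cells, at a mean of 6348 ± 1099 in MOSE-I and 15184 ± 3310.4 in MOSE-E cells (SD, n = 3 each; log2 change -1.24, SE 0.27, adjusted p = 0.0204, limma). Between MOSE-L and MOSE-I cells the log2 change was 0.87 (95% interval 0.28 to 1.45, adjusted p = 0.0366), past the adjusted p but under the fold. For MOSE-L against MOSE-E it was -0.38 (95% interval -0.97 to 0.21, adjusted p = 0.32), so a loss down to the lower bound is within the interval. The second tested probe set, 1421198_at, measured 1212, 2058 and 1702 on the MOSE-E arrays, 435, 394 and 500.3 on the MOSE-I arrays and 566, 1651 and 1105 on the MOSE-L arrays. The MOSE-I signals again lay below all others, and both MOSE-I against MOSE-E (log2 change -1.77, SE 0.33, adjusted p = 0.0119) and MOSE-L against MOSE-I (log2 change 1.12, SE 0.33, adjusted p = 0.0308) were called. The signals of these 2 probe sets correlated at 0.9449 over the 9 arrays, and 3 further Itgav probe sets reached at most 359.

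Itgb1 is the common beta chain of the receptors for laminin, collagen and fibronectin, and 6 of the 9 pairs considered here need it. The probe set 1426918_at gave 7306, 10929 and 10022 on the MOSE-E arrays, 4224, 3839 and 3534 on the MOSE-I arrays and 7105, 11007 and 11510.2 on the MOSE-L arrays. Every MOSE-I array lay below every array of the other stages, and MOSE-L and MOSE-E signals overlapped. The Itgb1 mRNA averaged 3865 ± 346 in MOSE-I and 9419 ± 1885 in MOSE-E cells (log2 change -1.26, SE 0.23, adjusted p = 0.0116), and it was higher again in MOSE-L cells at 9874 ± 2411 (log2 change 1.31, SE 0.23, adjusted p = 0.00421 against MOSE-I). The higher level in MOSE-L than in MOSE-I cells was called whichever single array was left out. For MOSE-L against MOSE-E the log2 change was 0.06 (95% interval -0.45 to 0.56, adjusted p = 0.877). The probe set 1452545_a_at had the same course, with 5136, 6892 and 6535 on the MOSE-E arrays, 2518, 2551 and 2391 on the MOSE-I arrays and 4777, 6884 and 7026 on the MOSE-L arrays. It was called in the same 2 comparisons, MOSE-I against MOSE-E at a log2 change of -1.29 (adjusted p = 0.00685) and MOSE-L against MOSE-I at 1.29 (adjusted p = 0.00261). A dimmer probe set whose name ending marks probes shared with other sequences, 1427771_x_at, was called between MOSE-L and MOSE-I cells (log2 change 1.15, SE 0.23, adjusted p = 0.00735), while its log2 change between MOSE-I and MOSE-E cells was -0.63 (95% interval -1.13 to -0.12, adjusted p = 0.0989). Its 3 MOSE-L signals lay above the MOSE-E signals, at 828, 713 and 714 against 419, 701 and 442, with a log2 change of 0.52 (95% interval 0.01 to 1.03, adjusted p = 0.116). Correlations between these 3 probe sets ran from 0.7719 to 0.994, and 3 further Itgb1 probe sets stayed under 250 on every array.

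The lower Itgav and Itgb1 signals of MOSE-I cells rested on small groups. Without MOSE-E replicate 2 the adjusted p of MOSE-I against MOSE-E was 0.117 for Itgav and 0.0742 for Itgb1, without MOSE-E replicate 3 it was 0.102 and 0.0719, and without MOSE-I replicate 3 it was 0.086 and 0.0662, in each case with a log2 change between -1.11 and -1.23. Without MOSE-L replicate 1, the lowest MOSE-L array for both chains, the log2 change of Itgav between MOSE-L and MOSE-I cells was 1.15 (adjusted p = 0.00642) and was called.

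Among genes outside the family, the courses most like that of Itgav were those of Sptbn1 (Pearson r = 0.9978), a spectrin of the membrane skeleton, Kmt2b (0.9862), a histone methyltransferase, and Ccdc82 (0.984), over the log2 signals of the 9 arrays. The courses most like that of Itgb1 were those of Sos2 (0.9798), an exchange factor for Ras, Cpd (0.979), a carboxypeptidase, and Mfge8 (0.9778), a secreted ligand of Itgav-containing integrins. Sptbn1 averaged 12966 on the MOSE-E arrays, 5222 on the MOSE-I arrays and 10350.5 on the MOSE-L arrays, and Mfge8 4752, 2039.9 and 5271 in the same stages, so both had their lowest mean in MOSE-I cells. These correlations over few arrays are a description and carry no test.

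Itgb5 encodes the beta chain that makes the vitronectin receptor with Itgav, and it had 4 tested probe sets. The brightest, 1417533_a_at, gave 1035, 1272 and 1126 on the MOSE-E arrays, 1669, 2196 and 2120.5 on the MOSE-I arrays and 2334, 2978 and 3939 on the MOSE-L arrays. The 3 stages did not overlap, with MOSE-I between MOSE-E and MOSE-L cells. The mRNA was higher in MOSE-L cells than in MOSE-E cells, with a mean signal 2.69 times as high (3084 ± 808 in MOSE-L and 1145 ± 119.6 in MOSE-E cells, SD, n = 3 each; log2 change 1.36, SE 0.22, adjusted p = 0.00173). The step between MOSE-I and MOSE-E cells was 0.77 (95% interval 0.29 to 1.25, adjusted p = 0.0494) on the log2 scale, past the adjusted p but under the fold, and the step between MOSE-L and MOSE-I cells was 0.59 (95% interval 0.11 to 1.07, adjusted p = 0.0632). The other probe sets had log2 changes of 1.59 (1417534_at, adjusted p = 0.00169), 1.30 (1456195_x_at, adjusted p = 0.00249) and 0.995 (1456133_x_at, adjusted p = 0.0149) for MOSE-L against MOSE-E, so that the last stayed just under the fold. Of the 4, only 1417534_at was called between MOSE-I and MOSE-E cells (log2 change 1.05, SE 0.25, adjusted p = 0.0297), at 1074, 1113 and 1227 in MOSE-I and 404, 648 and 545 in MOSE-E cells. The 4 probe sets correlated at 0.9247 to 0.9825. Among them, 1456195_x_at and 1456133_x_at carry the name ending that marks probes shared with other sequences.

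Itgb8, the beta chain that with Itgav binds latent TGF-beta, had the largest rise among the chains between MOSE-L and MOSE-E cells. Its single probe set, 1436223_at, gave 794, 399 and 437 on the MOSE-E arrays, 1238, 1342 and 1491 on the MOSE-I arrays and 1552, 3017 and 3543 on the MOSE-L arrays. The stages did not overlap, and replicate 1 was the highest array in MOSE-E and the lowest in MOSE-L cells. The mean was 2704 ± 1032 in MOSE-L and 543 ± 218 in MOSE-E cells, 4.98 times as high (log2 change 2.19, SE 0.32, adjusted p = 0.000975). The mRNA was also higher in MOSE-I than in MOSE-E cells (log2 change 1.30, SE 0.32, adjusted p = 0.0306), and between MOSE-L and MOSE-I cells the log2 change was 0.89 (95% interval 0.19 to 1.59, adjusted p = 0.0571). Without MOSE-L replicate 1 this last change was 1.24 (adjusted p = 0.00872) and was called. The call between MOSE-I and MOSE-E cells was lost without MOSE-E replicate 2 (adjusted p = 0.148), MOSE-E replicate 3 (0.136), MOSE-I replicate 2 (0.082) or MOSE-I replicate 3 (0.12), with log2 changes of 1.13 to 1.31.

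Itga7, the laminin-binding alpha chain best known from muscle, was the one chain called lower in MOSE-L cells. Its single probe set, 1418393_a_at, gave 621, 1062 and 1237 on the MOSE-E arrays, 361, 95.1 and 97.3 on the MOSE-I arrays and 74.4, 104 and 234 on the MOSE-L arrays. All MOSE-E signals were over 500 and no later array reached 500, with replicate 1 the highest of the MOSE-I arrays. The Itga7 mRNA was lower in MOSE-L cells, at 138 ± 85.1 against 974 ± 317 in MOSE-E cells (log2 change -2.49, SE 0.46, adjusted p = 0.00394), and lower in MOSE-I cells (log2 change -2.26, SE 0.46, adjusted p = 0.017). Between MOSE-L and MOSE-I cells the log2 change was -0.23 (95% interval -1.25 to 0.79, adjusted p = 0.73). The fall in MOSE-L cells was called whichever single array was left out, but the one in MOSE-I cells was lost without MOSE-E replicate 2 (adjusted p = 0.0985), MOSE-E replicate 3 (0.102), MOSE-I replicate 2 (0.0612) or MOSE-I replicate 3 (0.0822). The summed signal of 5 smooth muscle markers was also lower in MOSE-L cells. It was 24723 to 62429 on MOSE-E arrays, 6738 to 25332 on MOSE-I arrays and 617 to 1828 on MOSE-L arrays, most of it Acta2. Myh11 and Des were under 500 on every array, and their MOSE-L and MOSE-E signals overlapped. Des gave 197, 301 and 206 in MOSE-L and 185, 358 and 260 in MOSE-E cells. The part of the smooth muscle markers in the Itga7 result was not tested.

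Itga6, a laminin-binding alpha chain of epithelia, was lowest in MOSE-I cells. The probe set 1422445_at gave 1479, 1103 and 805 on the MOSE-E arrays, 712, 588 and 475 on the MOSE-I arrays and 1297, 1447 and 2034 on the MOSE-L arrays. No MOSE-I signal reached any signal of the other stages, while MOSE-L and MOSE-E arrays overlapped. It was higher in MOSE-L than in MOSE-I cells, at 1592 ± 389 in MOSE-L and 592 ± 118 in MOSE-I cells (log2 change 1.35, SE 0.25, adjusted p = 0.00581), a call that stood without any single array. The log2 change was -0.85 (95% interval -1.41 to -0.29, adjusted p = 0.0564) for MOSE-I against MOSE-E and 0.49 (95% interval -0.07 to 1.05, adjusted p = 0.172) for MOSE-L against MOSE-E, neither of them called. The second probe set, 1422444_at, gave 748, 449 and 255 on the MOSE-E arrays, 374, 148 and 293 on the MOSE-I arrays and 622, 658 and 959 on the MOSE-L arrays, and it too was called between MOSE-L and MOSE-I cells alone (log2 change 1.35, SE 0.37, adjusted p = 0.0246). Its correlation with the first was 0.9025.

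Itga3, the other laminin-binding alpha chain of epithelia, was over 500 on every array but varied most within MOSE-L cells. The probe set 1455158_at gave 1433, 2479 and 1967 on the MOSE-E arrays, 1698, 908 and 824 on the MOSE-I arrays and 928, 3532 and 2042 on the MOSE-L arrays. The MOSE-L signals spanned those of both other stages, with the lowest on replicate 1. The log2 change was -0.02 (95% interval -0.96 to 0.93, adjusted p = 0.982) for MOSE-L against MOSE-E, -0.79 (95% interval -1.74 to 0.16, adjusted p = 0.24) for MOSE-I against MOSE-E and 0.77 (95% interval -0.17 to 1.72, adjusted p = 0.19) for MOSE-L against MOSE-I, with wide intervals in all 3. Without MOSE-L replicate 1 the change between MOSE-L and MOSE-I cells was 1.27 (adjusted p = 0.0231) and was called. The probe set 1421997_s_at, whose name ending marks probes shared between transcripts, was called lower in MOSE-I than in MOSE-E cells (log2 change -1.26, SE 0.34, adjusted p = 0.0443), at 354, 155 and 269 in MOSE-I and 542, 1018 and 528 in MOSE-E cells. The third, 1460305_at, was not called in any comparison, with a log2 change of -0.68 (95% interval -1.42 to 0.06, adjusted p = 0.199) for MOSE-I against MOSE-E, and the 3 correlated at 0.8235 to 0.9208.

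Itga5, the alpha chain of the main fibronectin receptor, was near the filter. Its tested probe set, 1423267_s_at, gave 217, 569.7 and 576 on the MOSE-E arrays, 290.3, 236 and 275 on the MOSE-I arrays and 255, 559 and 409 on the MOSE-L arrays. Only 2 MOSE-E arrays and 1 MOSE-L array were over 500, and MOSE-L signals overlapped those of MOSE-E cells. The log2 change was -0.09 (95% interval -0.89 to 0.70, adjusted p = 0.869) for MOSE-L against MOSE-E and -0.57 (95% interval -1.36 to 0.22, adjusted p = 0.307) for MOSE-I against MOSE-E. The highest signal of its other 3 probe sets was 344. Itga2, a collagen-binding alpha chain, gave 82.1, 107 and 29 on the MOSE-E arrays, 97.6, 71.6 and 62.5 on the MOSE-I arrays and 106, 119 and 55.1 on the MOSE-L arrays, all under 500 and overlapping in every comparison. Itgb3, a beta chain partner of Itgav, gave 112, 105 and 66.5 on the MOSE-E arrays, 214, 237 and 306 on the MOSE-I arrays and 143, 209.6 and 145 on the MOSE-L arrays on its brighter probe set, and at most 92.5 on the other. Its MOSE-I signals were the highest and did not overlap those of the other stages, but all stayed under the filter, and with no filter the log2 change between MOSE-I and MOSE-E cells was 1.07 (adjusted p = 0.0667).

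**Figure D2:**
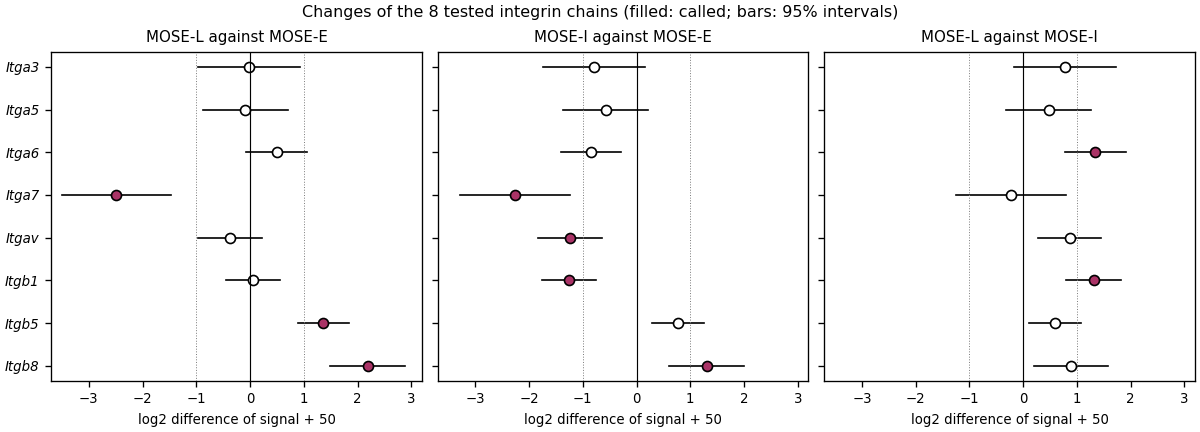
Points give the log2 difference of signal + 50 (horizontal axis) of the 8 tested chains (rows) in 3 comparisons of stages, with bars for 95% intervals, dotted lines at a log2 change of 1 in size and filled points for calls. Itga7 (-2.49) and Itgb8 (2.19) lie farthest from 0 for MOSE-L against MOSE-E, and Itgb1 is filled on opposite sides of 0 in the other comparisons.

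**Figure D3:**
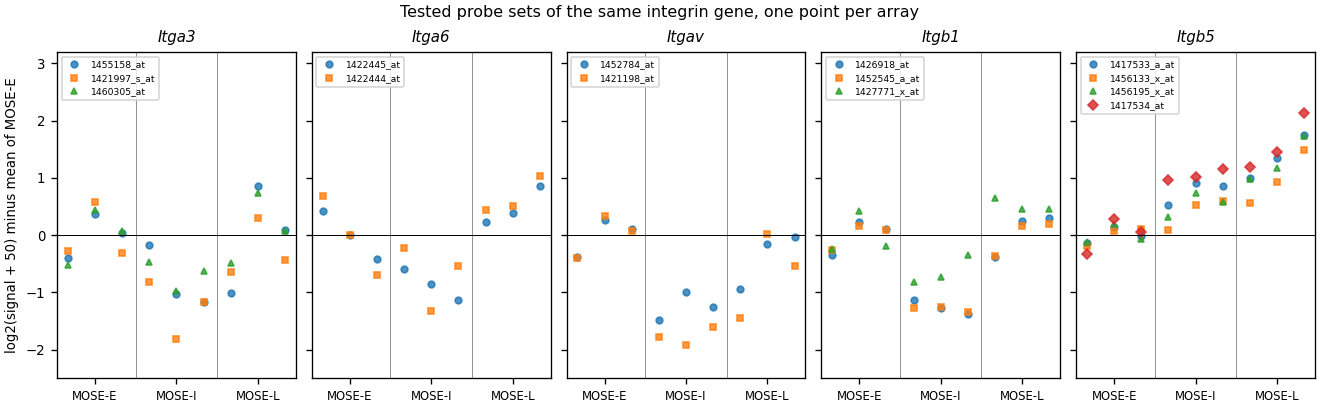
Each point is 1 array (grouped by stage along the horizontal axis, replicates in order) and 1 tested probe set, as log2(signal + 50) minus the mean of the MOSE-E arrays, for the 5 chains with several tested probe sets. The 4 Itgb5 probe sets are above their MOSE-E mean on every MOSE-L array, and the brighter Itgav and Itgb1 probe sets lie near or below -1 on the MOSE-I arrays.

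A pair of chains was taken as measured in a stage where each chain had a probe set over 500 on all 3 arrays. By this rule 5 of the 9 pairs considered were measured in MOSE-E cells, 4 were in MOSE-I cells and 5 were in MOSE-L cells. Itga3 with Itgb1, a laminin receptor, Itgav with Itgb1, which binds fibronectin and latent TGF-beta, and Itgav with Itgb5, which binds vitronectin, were measured in all 3 stages. Itga7 with Itgb1 was measured in MOSE-E cells alone, and Itgav with Itgb8 in MOSE-I and MOSE-L cells. Itga6 with Itgb1 was measured in MOSE-E and MOSE-L cells but not in MOSE-I cells, where Itga6 was 475 on replicate 3. Itga2 with Itgb1, Itga5 with Itgb1 and Itgav with Itgb3 were measured in no stage. Of the 3 laminin-binding pairs measured in MOSE-E cells, 2 were thus measured in MOSE-L cells, and the pair measured in MOSE-L but not in MOSE-E cells was Itgav with Itgb8.

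The count depends on the limit, since several chains lie near it. Over 250 in place of 500, MOSE-E cells had 6 measured pairs, MOSE-I cells 5 and MOSE-L cells 6, and over 1000 the counts were 3, 3 and 4. Itgb8 was 399 on its lowest MOSE-E array, so its pair with Itgav was not counted there at 500 and measured at 250. A signal is a brightness that depends on the probe, so these limits do not rank chains, and mRNA does not show which pairs reach the surface. Of 17 other chains of the family 15 had a probe set of their own, and 14 of these were under 500 on all arrays, with the highest signal at 326. They include Itgb4 (highest signal 161), the other partner of Itga6, and Itgb6 (highest signal 113), another partner of Itgav. Itga2b, the platelet alpha chain, passed the filter, with 621, 696 and 491 in MOSE-L and 416, 596 and 434 in MOSE-E cells, and was not called, with a log2 change of 0.30 (95% interval -0.25 to 0.85, adjusted p = 0.398).

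**Figure D4:**
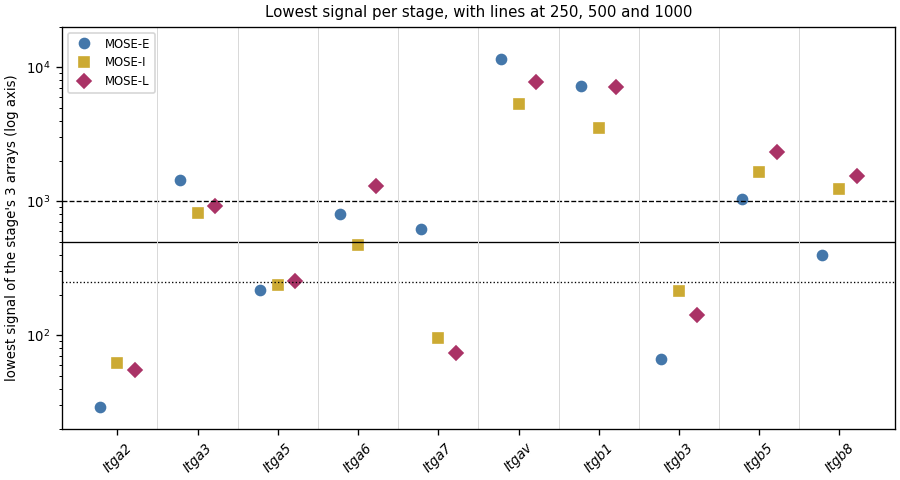
For each chain (horizontal axis) the lowest signal among the 3 arrays of each stage is plotted for its best probe set (vertical log axis, MAS 5.0 units), with lines at 250, 500 and 1000. A symbol over 500 means that the chain counted as measured in that stage: this holds for 6 chains in MOSE-E cells, 5 chains in MOSE-I cells and 6 chains in MOSE-L cells.

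Many matrix ligands of the integrin family were lower in MOSE-L cells. Itga2, the chain named above as collagen-binding, reached at most 119, so its pair with Itgb1 was measured in no stage. Of 10 collagen genes 9 were tested, and 6 were lower in MOSE-L cells than in MOSE-E cells (Col1a1, Col1a2, Col4a1, Col4a2, Col5a1 and Col5a2) and none higher. Col4a1, a chain of basement membrane collagen, gave 1562, 2510.2 and 3186 in MOSE-L and 13914, 30110.0 and 30768 in MOSE-E cells (log2 change -3.31, SE 0.35, adjusted p = 0.000159). Its partner chain Col4a2 gave 1387, 2225 and 2586 in MOSE-L and 4513, 12418 and 10927 in MOSE-E cells (log2 change -2.06, SE 0.36, adjusted p = 0.00307). Col1a1 of fibrillar collagen gave 2396, 3657 and 3937 in MOSE-L and 9034, 29046 and 26891 in MOSE-E cells (log2 change -2.54, SE 0.40, adjusted p = 0.00172), while Col1a2 had the largest fall of the list (log2 change -6.98, adjusted p = 2.59e-06). All MOSE-L signals of these 4 genes, taken for the largest changes of the list, lay below all MOSE-E signals, which this choice favours, while those of Col5a1 overlapped. Of the 4 laminin genes tested of 11, only Lamc1, the gamma chain of most laminins, was called, at 686, 946 and 1933 in MOSE-L and 1559, 3646 and 3252 in MOSE-E cells (log2 change -1.25, SE 0.38, adjusted p = 0.0321), and the stages overlapped. That call was lost without MOSE-E replicate 2, MOSE-E replicate 3 or MOSE-L replicate 2 (0 laminin genes called), while 3 were called without MOSE-E replicate 1. Over all genes 11.2%, 10.8%, 17.6% and 15.9% were called in the same order, against 15.6% with all arrays. The median log2 change was -1.72 over the collagens and -0.85 over the laminins, against 0.03 over all tested genes. Of all tested genes 7.49% were called lower and 8.11% higher. Col1a1 is also one of the fibroblast markers, while Dcn, the other one over 500 on all arrays, ran the other way, its MOSE-L signals spanning 19342 to 27205 and its MOSE-E signals 3752 to 6646, and the part of these markers in the counts was not tested.

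Of 21 other ligands, with the Arg-Gly-Asp motif or of the matricellular kind, 12 were tested, and 6 were lower in MOSE-L cells (Ccn1, Ccn2, Fbln5, Npnt, Thbs1 and Tnc) and none higher, with a median of -0.97. Over all tested genes 7.49% were lower and 8.11% higher, with a median of 0.03. Tnc, tenascin C, gave 149, 157 and 285 in MOSE-L and 2536, 8878 and 9306 in MOSE-E cells (log2 change -4.65, SE 0.48, adjusted p = 0.000149). Fbln5, fibulin 5 of elastic fibres, gave 1143, 425 and 775 in MOSE-L and 3537, 6255 and 7400.2 in MOSE-E cells (log2 change -2.83, SE 0.40, adjusted p = 0.000862). Ccn2, connective tissue growth factor, gave 3662, 4429 and 7923 in MOSE-L and 18099.7, 38761 and 44046 in MOSE-E cells (log2 change -2.62, SE 0.47, adjusted p = 0.00311), and Thbs1, thrombospondin 1, gave 887, 3523 and 1085 in MOSE-L and 4138, 12986 and 11878 in MOSE-E cells (log2 change -2.47, SE 0.52, adjusted p = 0.00697). In none of these 4, taken for the largest changes of the list, did the groups overlap, which this choice favours. Replicate 1 was the lowest of the MOSE-E arrays in all of them. The summed smooth muscle marker signal given beside Itga7 was lower along with these ligands, and the part of these markers in the counts was not tested.

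The intracellular partners were mixed. Of 26 tested focal adhesion adaptors and kinases (of 32), 9 were lower in MOSE-L cells than in MOSE-E cells (Actn1, Ajuba, Fblim1, Flna, Lasp1, Tgfb1i1, Tns1, Vcl and Zyx) and 4 were higher (Fyn, Nck2, Pxn and Tns2). Tgfb1i1, the paxillin relative Hic-5, gave 142, 14.8 and 21.2 in MOSE-L and 1421, 3063 and 4226 in MOSE-E cells (log2 change -4.81, SE 0.54, adjusted p = 0.000209). Actn1, alpha-actinin, which crosslinks actin, gave 3042, 4005 and 2690.2 in MOSE-L and 8306, 18781 and 21768 in MOSE-E cells (log2 change -2.21, SE 0.32, adjusted p = 0.00107). Zyx, zyxin, gave 1783, 1691 and 1523 in MOSE-L and 4034, 8505 and 10100.0 in MOSE-E cells (log2 change -2.05, SE 0.30, adjusted p = 0.00115), and Tns1, tensin, which ties the beta chain tail to actin, gave 349.8, 401 and 257 in MOSE-L and 902, 1484 and 1739.5 in MOSE-E cells (log2 change -1.85, SE 0.25, adjusted p = 0.000613). In each of these 4, taken for the largest changes of the list, the MOSE-L signals lay below the MOSE-E signals, which this choice favours, while those of Flna overlapped. Paxillin (Pxn) and the Src family kinase Fyn were among the genes that rose, at log2 changes of 1.15 (adjusted p = 0.00185) and 1.30 (adjusted p = 0.00402). The list's median was -0.39, against 0.03 over all tested genes, of which 7.49% were called lower and 8.11% higher. The part of the smooth muscle markers in these falls was not tested either.

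Of the 8 tested genes of talin, kindlin and the ILK complex (of 12), 1 was lower in MOSE-L cells, Rsu1, which binds the PINCH adaptor, at 2374, 1534 and 1058 in MOSE-L and 2894, 3588 and 5061 in MOSE-E cells (log2 change -1.23, SE 0.33, adjusted p = 0.0211). This count moved with single arrays, to 6 without MOSE-E replicate 1, 3 without MOSE-L replicate 1, 4 without MOSE-L replicate 2, and 0 without MOSE-E replicate 2, MOSE-E replicate 3 or MOSE-L replicate 3. Over all genes 15.9%, 17%, 17.6%, 11.2%, 10.8% and 13% were called in the same order, against 15.6% with all arrays. The median was -0.90, against 0.03 over all tested genes, of which 7.49% were called lower and 8.11% higher. The call of 1 in 8 genes of the talin list is close to that share. Of 11 tested tetraspanins and other partners in the membrane (of 12), 4 were higher (Cd47, Cd9, Emb and Slc3a2) and 1 was lower (Cav1), with a median of 0.59. Cd9, a tetraspanin that binds beta chains, gave 12458, 15068 and 16105 in MOSE-L and 6228, 4979 and 5392 in MOSE-E cells (log2 change 1.38, SE 0.23, adjusted p = 0.00225). Cd47, which associates with Itgb3, gave 7188, 7057 and 12572 in MOSE-L and 3743, 3084 and 3032 in MOSE-E cells (log2 change 1.38, SE 0.25, adjusted p = 0.00357). Cav1, caveolin, gave 8348, 6144 and 5884 in MOSE-L and 19919, 23212 and 32032 in MOSE-E cells (log2 change -1.86, SE 0.22, adjusted p = 0.00025), and Emb, embigin, was under 100 on the MOSE-E arrays and had a log2 change of 7.10 (adjusted p = 1.23e-06).

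**Figure D5:**
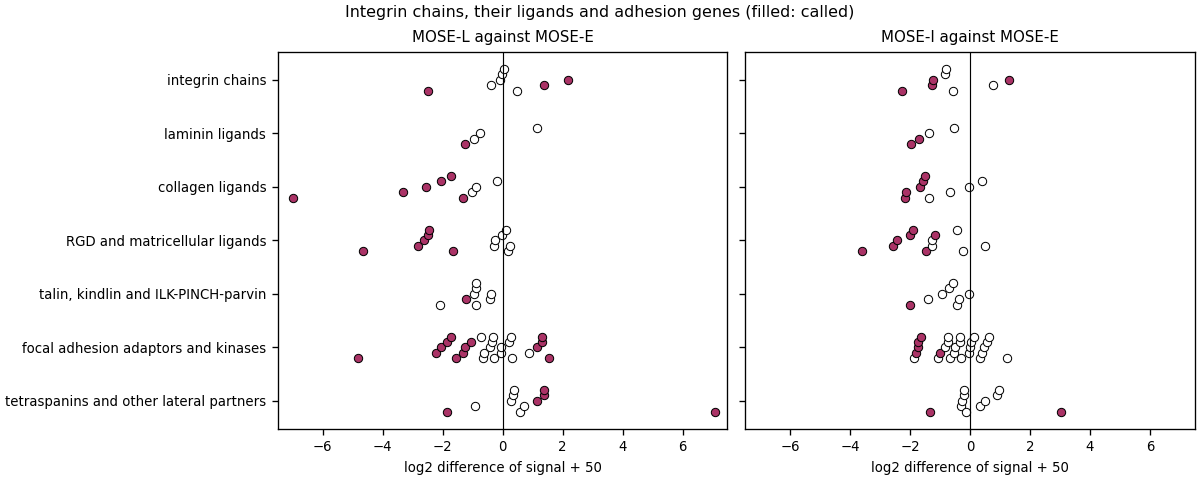
Each point is 1 tested gene, by its log2 difference of signal + 50 (horizontal axis), for the integrin chains and 6 gene lists (rows, points spread vertically for legibility), with filled points for calls. The called collagens and the called other ligands all lie left of 0 in both comparisons, and the called integrin chains lie on both sides.

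Between MOSE-I and MOSE-E cells the same lists gave 5 collagens lower (Col1a1, Col3a1, Col4a1, Col4a2 and Col5a2), 2 laminins lower (Lamb1 and Lamc1), 7 other ligands lower (Ccn1, Ccn2, Fbln5, Mfge8, Npnt, Thbs1 and Tnc), 1 of the talin list lower (Tln1), 5 adaptors lower (Actn1, Ajuba, Bcar1, Flna and Zyx), and 1 membrane partner higher (Emb) and 1 lower (Plaur), with no other gene higher. Their medians were -1.51 for collagens, -1.54 for laminins, -1.38 for other ligands, -0.65 for the talin list, -0.42 for adaptors and -0.15 for membrane partners, against 0.03 over all genes. Of all tested genes 2.29% were called higher and 3.61% lower. Talin (Tln1), which binds the Itgb1 tail and activates the receptor, gave 640.2, 629 and 713 in MOSE-I and 1523, 3836 and 3796 in MOSE-E cells (log2 change -2.01, SE 0.37, adjusted p = 0.0117), with no overlap. Without MOSE-E replicate 2 the calls numbered 1 for collagens, 1 for other ligands, 1 for membrane partners and 0 for laminins, the talin list and adaptors, and the same counts came without MOSE-E replicate 3. In the same order they were 2, 1, 1, 0, 0 and 1 without MOSE-I replicate 3. The share called over all genes was also low in these fits, at 1.01%, 1.1% and 1.69%, against 5.9% with all arrays. Without MOSE-E replicate 1 there were 8 adaptors and 3 genes of the talin list, without MOSE-L replicate 3 there were 8 adaptors, without MOSE-I replicate 1 there were 3 collagens, 1 laminin and 4 membrane partners, and without MOSE-I replicate 2 there were 3 adaptors, 1 laminin and 1 membrane partner. Over all genes 8.93%, 7.27%, 7.07% and 3.4% were called in the same order.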

How the data were processed

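Total RNA of the 3 MOSE stages was hybridised to 9 Affymetrix arrays, 3 per stage. The authors made the deposited intensities with MAS 5.0, as linear signals, and brought every array to the same trimmed mean of 500. Detection calls were not used here, and the number of arrays limits the precision. From the signals, log2(signal + 50) was taken, 64 control probe sets were left out, and the 13845 probe sets that exceeded 500 on any array were fitted with 1 mean per stage on the 9 arrays, using limma 3.58.1 (R 4.3.3), empirical Bayes with a mean trend and 6 residual degrees of freedom. The Benjamini-Hochberg adjustment covered every tested probe set. The methods filter in the same way and use a fold over 2 with a t-test, which was run as an alternative. Of the probe sets 34958 named 1 gene and 932 several, and a gene was represented by its tested probe set of highest mean signal. The procedure was tested on simulated data.

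The members, the gene lists and the markers were chosen with earlier results of these data known. By the rule for named genes, all 10 chains were described, and of each list the genes called for MOSE-L against MOSE-E or MOSE-I against MOSE-E were named, with values for up to 4 that changed most from MOSE-E in MOSE-L cells. Genes that no probe set named alone were not analysed here. Sequences and their coordinates came from RefSeq's mouse build GRCm38.p6, and motifs were searched on both strands. Alternatives were another added value, quantile normalization, median centring, other filters and thresholds, no variance trend, fitting the compared groups alone, a block for replicate number, other ways of combining probe sets and leaving out each array in turn.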

Additional observations from a re-analysis of the deposited data

How the results depend on the processing

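Of 570 log2 changes of the 8 chains under the alternatives, 522 kept direction and side of the threshold, 28 lost the call, 6 gained it and 14 turned sign, all of these 14 in changes that were not called. The number of chains called was 3 between MOSE-L and MOSE-E cells whichever array was left out (the same chains, Itga7, Itgb5 and Itgb8). It was 0 to 4 between MOSE-I and MOSE-E cells, and 2 to 5 between MOSE-L and MOSE-I cells. Over all genes 10.8% to 17.6%, 1.01% to 8.93% and 8.73% to 18.9% were called in the same order. At an adjusted p of at most 0.01, 0 chains and 1.67% of all genes were called between MOSE-I and MOSE-E cells. The methods' t-test called 3, 4 and 2 chains in the 3 comparisons unadjusted, with 13.5%, 7.16% and 10.6% of all genes. After Benjamini-Hochberg it called 0, 0 and 0 chains, and 3.18%, 0.101% and 0.0629% of all genes. With the replicate block 3, 4 and 2 chains were called, as without it, with 15.5%, 6.06% and 13.7% of all genes. Same-numbered arrays deviated together at correlations of -0.1133 to 0.4102, highest between replicate 1 of MOSE-E and of MOSE-L. Correlations between arrays of different numbers were not taken for reference. The numbers were not taken as pairs, since the labels do not say that a number marks a shared day or culture. Among the lists the block moved the laminins called to 2 for MOSE-L against MOSE-E and to 3 for MOSE-I against MOSE-E. It moved the other ligands to 8 and the adaptors to 7 for MOSE-I against MOSE-E, and the other ligands to 2 for MOSE-L against MOSE-I. With no filter Itgb8 lost its call between MOSE-I and MOSE-E cells (adjusted p = 0.0561), and under quantile normalization Itgav gained one between MOSE-L and MOSE-I cells (log2 change 1.02, adjusted p = 0.0294). Counting a chain by any of its tested probe sets, 6 were called between MOSE-I and MOSE-E cells, with 6.99% of all genes, against 5.9% by the brightest probe set. Pairs measured in MOSE-E cells numbered 3 over a signal of 1000. Signs turned for 4 chains, none of them called in that comparison. In MOSE-L against MOSE-E, the log2 change of Itga3 was 0.016 under quantile normalization, 0.15 in the methods' t-test with or without adjustment, and -0.46 to 0.48 with 1 array left out, that of Itga5 was -0.50 to 0.17 and that of Itgb1 -0.12 to 0.28. In MOSE-L against MOSE-I that of Itga7 was -0.58 to 0.27. The cause of these shifts was not tested.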
